A study of Sus scrofa with 6 samples.

Results

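The 8 genes examined here are the peroxisome proliferator-activated receptors PPARA, PPARD and PPARG, their dimer partner RXRA, the coactivator PPARGC1A, and the transcription factors ESRRA, NRF1 and HNF4A. They were taken by symbol, as every probe set whose only gene in the array annotation was one of them. This gave 11 probe sets for 6 genes out of the 6765 genes that the annotation names singly, with 3 probe sets for PPARD, 2 each for PPARA, RXRA and HNF4A, and 1 each for PPARG and PPARGC1A. The other 2 genes, ESRRA and NRF1, have no probe set under their symbols in the annotation used here and were not analysed here.

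Kidney tissue labelled renal medulla came from 3 Sham pigs and 3 CPB pigs, all Large White-Landrace crossbreds, with 1 Affymetrix porcine array per animal. Sham pigs had 2.5 hours of general anaesthesia and CPB pigs had cardiopulmonary bypass for the same time under anaesthesia, and the tissue was taken 24 hours later. Per the study's methods all animals were adult females, both groups had the same neck dissection and systemic heparin, and the tissue was dissected as outer medulla. The comparison asks how CPB alters gene expression in the medulla, where each value is an RMA intensity, a background-corrected and normalised probe set signal.

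PPARs are nuclear receptors that bind fatty acids and their derivatives and act on DNA as dimers with RXR. PPARA drives genes of fatty acid oxidation and PPARG those of fat storage, while PPARD is widely expressed and shares many targets with PPARA. PPARGC1A encodes PGC-1alpha, which binds PPARs, estrogen-related receptors and other factors and raises mitochondrial gene expression. HNF4A is a nuclear receptor of liver, gut and kidney, and in the nephron it is a factor of the proximal tubule, a largely cortical segment that burns fatty acids. In the kidney PPARG is known from the collecting duct and the urothelium as well as from fat cells.

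No member was called in the main limma comparison of CPB with Sham medulla, or with the methods' t-test. Of the 11 member probe sets, 0 met the study's threshold (at least 1.6-fold with an unadjusted p below 0.05), against 0.304% of all 23999 probe sets, and 0 had an unadjusted p under 0.05 with limma or with the methods' t-test. After Benjamini-Hochberg adjustment limma called 0 members and 0% of all probe sets, of which 336 had an unadjusted p under 0.05 with limma and 499 with the methods' t-test, which also called 0 after adjustment. The CPB and Sham values overlapped on all 11 probe sets, where 5.27% of all probe sets had groups that did not overlap. The mean was higher in CPB on 8 of the 11, beside 55.9% of all probe sets, and the median log2 difference was 0.061 over the 11 and 0.027 over all. Because 3 animals against 3 cannot give an exact two-sided permutation p below 0.1, differences are given below with limma's standard error and 95% confidence interval. What set the members apart from each other was how far they varied between animals of one group.

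HNF4A showed the widest range of the 6 genes, and the range inside each group was nearly as wide as the 10.5-fold over all animals. On its brighter probe set (Ssc.19208.1.S1_at) the Sham animals had intensities of 162.9, 1495.9 and 559.1, and the CPB animals had 1645.5, 185.6 and 1717.5. Sham 1 and CPB 2 were low, Sham 2, CPB 1 and CPB 3 were high, and Sham 3 lay between them. The highest Sham animal was 9.18-fold above the lowest and the highest CPB animal 9.25-fold above the lowest, and the span over the 6 arrays exceeded that of 99.0% of probe sets. Sham averaged 739 ± 684 and CPB 1183 ± 864 (mean ± SD, n = 3 each), a log2 difference of 0.65 (standard error 1.15, 95% confidence interval from -2.16 to 3.45, adjusted p = 0.995 from limma). The other HNF4A probe set (Ssc.19208.2.S1_at) ran from 98.8 to 429.7 in Sham and from 125.0 to 612.1 in CPB, with the animals in the same order, and differed by 0.70 (95% confidence interval -1.17 to 2.57). The difference of the brighter probe set was -0.18 without Sham 1, 0.10 without CPB 3 and 0.13 without CPB 1, and it rose to 1.42 without Sham 2 and 1.71 without CPB 2, none of them called.

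**Figure D1:**
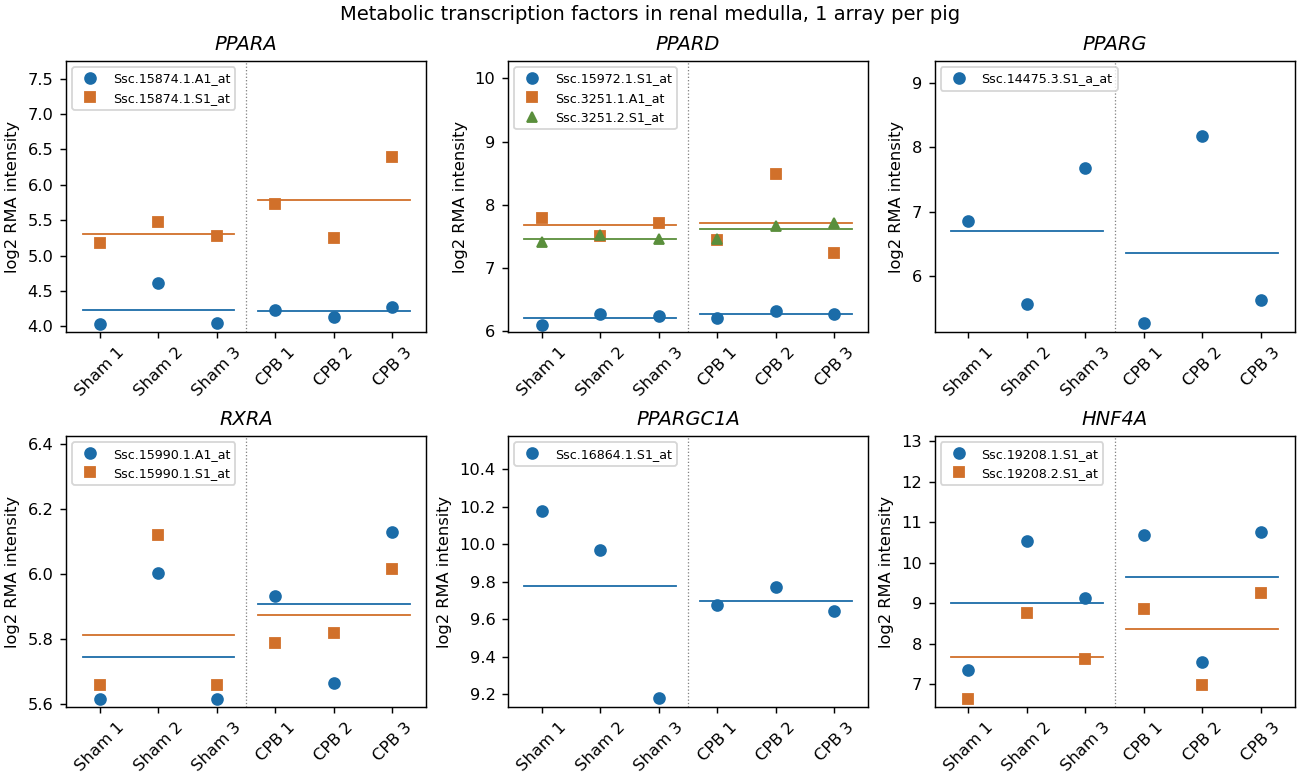
Log2 RMA intensity of the 11 probe sets of the 6 measured genes on each array, with 1 point per pig and probe set, 3 Sham arrays left and 3 CPB arrays right of the dotted line, and a horizontal line for each group mean (each panel has its own axis). HNF4A is low in Sham 1 and CPB 2 on both probe sets, and PPARG runs from 38.6 to 288 on the linear scale within the CPB group alone.

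Proximal tubule markers moved with HNF4A from animal to animal. Of 34 listed markers of this segment 21 were measured. On average all of them were higher in CPB, beside 56.2% of all named genes, by a median log2 difference of 1.03 beside 0.033. None of the markers met the study's threshold. After each marker's own mean log2 value over all arrays was subtracted, their average (called the centred mean here) stood at -2.27, 1.17 and -0.38 for the Sham animals, and for the CPB animals at 1.40, -1.59 and 1.67. Without Sham 1 the median was 0.047, and without CPB 2 it was 2.04, with 5 markers called where 2.89% of all probe sets were. Without Sham 2 the threshold was met by 1 marker, and with array weights by 14, where 2.92% and 7.12% of all probe sets met it. Their summed intensity ranged from 4184 to 41769 in Sham and from 6180 to 52799 in CPB. FBP1, a gluconeogenic enzyme among the 3 brightest of these markers, had 310.2, 6336.0 and 2688.5 in Sham and 7300.4, 506.8 and 8211.8 in CPB. The others were PCK1, the enzyme that commits carbon to gluconeogenesis, at 1185 to 5979 in Sham and 1347 to 6749 in CPB, and ACY1, an aminoacylase, at 551.3 to 4911 in Sham and 800.1 to 6210 in CPB. The animals stood in exactly the order of HNF4A for 10 of the 21 markers (47.6%) and for 1.98% of the 6759 other named genes. The part of proximal tubule content in the HNF4A values was not tested, and in whole tissue fewer tubule cells and less RNA per cell cannot be told apart. With the centred mean of these markers as a covariate the HNF4A difference was -0.31 (standard error 0.13, adjusted p = 1.00 from limma) on the brighter and 0.066 on the other probe set, but HNF4A is itself a gene of this segment.

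The tissue label could be set against markers of its own segments only in part, since intensities of different probe sets are not comparable and signal over background is unknown, so these levels do not show which segments a sample held. Of 10 listed markers of the thick ascending limb 4 were measured, and of 11 of the collecting duct 6. KCNJ1, a potassium channel of the thick ascending limb, had 2219, 1250.5 and 881.4 in Sham and 1249, 2127 and 834.9 in CPB. CLDN10, a claudin of the same segment, had 1419 to 2051 in Sham and 1765 to 1965 in CPB, EGF had 660.2 to 2179 and 700.6 to 1928, and PTGER3 had 120.7 to 320.3 and 125.8 to 169.8. The groups overlapped on all 4.

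The 3 genes whose profile over the 6 arrays lay closest to that of HNF4A were FOLR2, a folate receptor, AKR7A2, an aldehyde-reducing enzyme, and ACY1. The measure was the root mean square difference of the centred log2 values, which was 0.071 for FOLR2, 0.12 for AKR7A2 and 0.14 for ACY1 among 6759 named genes. FOLR2 had 165.6, 1455.8 and 496.4 in Sham and 1559.4, 190.4 and 1719.6 in CPB. With so many genes and 6 arrays some close profiles are found for any gene, so the likeness is a description.

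PPARG varied nearly as widely as HNF4A, with high and low animals largely exchanged. On its only probe set (Ssc.14475.3.S1_a_at) the Sham animals had 115.95, 47.4 and 204.2 and the CPB animals 38.6, 288.0 and 49.4. CPB 2, Sham 3 and Sham 1 were high and CPB 1, Sham 2 and CPB 3 were low, the latter being the animals in which HNF4A was high. The highest animal was 4.31-fold above the lowest in Sham and 7.47-fold in CPB. Sham averaged 123 ± 78.6 and CPB 125 ± 141 (mean ± SD, n = 3 each), while the log2 difference was -0.34 (standard error 0.90, 95% confidence interval -2.54 to 1.85, adjusted p = 0.995 from limma). The direction thus turned with the scale, since the ratio of the linear means gave a log2 difference of 0.033. It also turned to 0.14 without Sham 3, 0.20 without CPB 1 and 0.021 without CPB 3, and was -1.25 without CPB 2 and -0.91 without Sham 2.

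Some markers of urothelium and collecting duct were high in the animals with high PPARG, and others were not. On 2 of the 5 measured urothelium markers, UPK3A and UPK1B, Sham 1, Sham 3 and CPB 2 held the 3 highest values. UPK3A, an uroplakin of the urothelial surface, had 415.2, 61.6 and 527.6 in Sham and 55.4, 836.6 and 56.6 in CPB. UPK1B, another uroplakin, had 206.6, 33.4 and 1207.7 in Sham and 35.3, 115.8 and 28.4 in CPB. UPK1A, of the same family, was highest in Sham 3 at 109.4 but lowest in CPB 2 at 30.3. The centred mean of the 5 markers stood at 0.42, -0.72 and 1.36 for Sham and at -0.80, 0.50 and -0.76 for CPB, and their summed intensity ran from 266 to 2005 in Sham and from 246 to 1163 in CPB.

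Of the 6 measured collecting duct markers, Sham 1, Sham 3 and CPB 2 held the 3 highest values on 3 (AQP3, AVPR2 and GATA3) and the 3 lowest on 2 (SCNN1A and SCNN1B). For GATA3, a transcription factor that urothelium also expresses, the values were 935.3, 231.8 and 999.0 in Sham and 244.8, 2765.1 and 138.5 in CPB. AQP3, a water channel, was at 4831, 1048 and 2590 in Sham and 1080, 5437 and 1280 in CPB. SCNN1B, a subunit of the epithelial sodium channel, ran against these with 106.8, 187.1 and 98.2 in Sham and 174.0, 117.8 and 164.6 in CPB. HSD11B2, which inactivates cortisol, was lowest in Sham 1 at 638.5 and in CPB 2 at 919.5. The centred mean of the 6 markers was 0.12, -0.15 and 0.10 in Sham and -0.29, 0.68 and -0.46 in CPB, and their summed intensity ran from 3562 to 6711 in Sham and from 2676 to 9548 in CPB. The part of either cell type in the PPARG values was not tested.

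**Figure D2:**
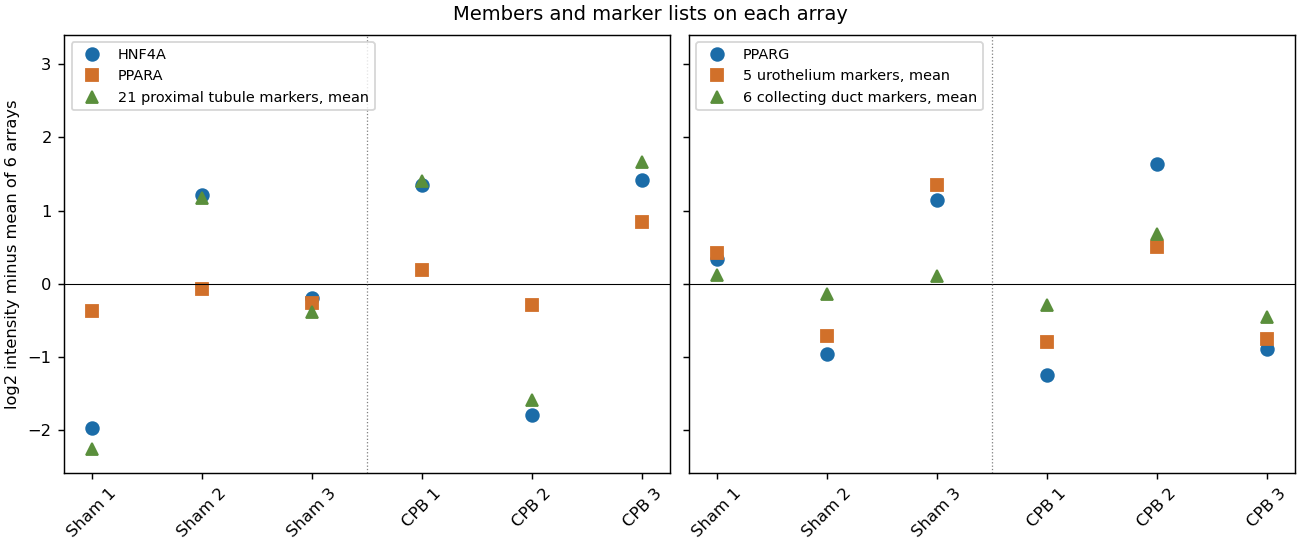
Log2 intensity minus its mean over the 6 arrays, for HNF4A, PPARA and the mean of 21 proximal tubule markers (left) and for PPARG and the means of 5 urothelium and 6 collecting duct markers (right), with 1 point per array. HNF4A and the proximal tubule markers are lowest in Sham 1 and CPB 2, and PPARG is highest in CPB 2 and Sham 3.

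Fat cell markers differed among themselves. Of 8 listed markers 5 were measured, with a centred mean of -0.68, 0.30 and 0.099 in Sham and 0.27, -0.43 and 0.45 in CPB, and a summed intensity of 318 to 816 in Sham and 383 to 829 in CPB. FABP4, a fatty acid carrier of fat cells and capillaries and a textbook PPARG target, had 47.3, 145.9 and 175.5 in Sham and 230.2, 44.1 and 332.3 in CPB. CIDEA, a lipid droplet protein, had 57.7, 436.2 and 194.3 in Sham and 294.5, 85.5 and 269.7 in CPB. Both were lowest in Sham 1 and CPB 2. LIPE, the hormone-sensitive lipase, was highest in these same animals, with 87.2, 78.7 and 78.7 in Sham and 79.4, 107.1 and 76.7 in CPB. ADIPOQ, which encodes adiponectin, stayed between 30.8 and 51.2 on all arrays, and LEP, which encodes leptin, between 95.1 and 121.0. The part of fat cells in the PPARG values was not tested.

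The named genes closest to PPARG over the arrays were SDCBP2, which encodes syntenin-2, PPP1R3B, a glycogen-targeting phosphatase subunit, and CDH1, the epithelial adhesion protein E-cadherin. Their root mean square differences from PPARG were 0.22, 0.22 and 0.24, larger than those of the genes closest to HNF4A. CDH1 had 2079, 721.8 and 3014 in Sham and 715.9, 3518 and 593.6 in CPB, so that Sham 1, Sham 3 and CPB 2 were high on this gene too.

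PPARA, the receptor tied to fatty acid oxidation, had the smallest p of the members on its brighter probe set and no call. That probe set (Ssc.15874.1.S1_at) gave 36.1, 44.4 and 38.7 in Sham and 53.0, 38.0 and 83.8 in CPB. CPB 1 and CPB 3 lay above every Sham animal, and CPB 2 lay within the Sham range. Sham averaged 39.8 ± 4.25 and CPB 58.3 ± 23.3 (mean ± SD, n = 3 each), a log2 difference of 0.48 (standard error 0.29, 95% confidence interval from -0.24 to 1.2, unadjusted p = 0.153 and adjusted p = 0.995 from limma). Without CPB 2 the difference was 0.75 and met the study's threshold (unadjusted p = 0.0215, adjusted p = 0.742 from limma), and without CPB 3 it was 0.18. The animals stood in the order of HNF4A, and with the proximal tubule covariate the difference was 0.30 (standard error 0.22). A dimmer PPARA probe set with the same number in its name (Ssc.15874.1.A1_at) read 16.4, 24.4 and 16.5 in Sham and 18.7, 17.6 and 19.3 in CPB. Sham 2 was highest, and the log2 difference was -0.019 (95% confidence interval -0.47 to 0.43). Only 12.4% of probe sets were dimmer on average than this probe set and 29.5% than the brighter one, and signal over background is not known. The probe sets therefore differed in sign, but the interval of each covers both directions.

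Genes with profiles close to the brighter PPARA probe set were PLG, which encodes plasminogen, RTN4IP1, a mitochondrial protein, and GAMT, the enzyme that makes creatine. Their root mean square differences were 0.085, 0.099 and 0.11. GAMT had 185.0, 224.0 and 166.3 in Sham and 271.7, 171.9 and 436.9 in CPB, with CPB 3 highest as for PPARA.

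PPARD differed by at most 0.15 on the log2 scale between the group means and, on 2 of its 3 probe sets, varied little between animals. Probe set Ssc.15972.1.S1_at stayed between 68.6 and 79.7 on all 6 arrays and differed by 0.061 (95% confidence interval -0.20 to 0.33). Probe set Ssc.3251.2.S1_at gave 170.7, 182.8 and 176.2 in Sham and 176.4, 202.5 and 210.2 in CPB, with CPB 2 and CPB 3 above every Sham animal and a log2 difference of 0.15 (standard error 0.12, 95% confidence interval from -0.13 to 0.43). The brightest, Ssc.3251.1.A1_at, behaved otherwise, with 220.9, 182.6 and 210.4 in Sham and 173.3, 356.8 and 150.4 in CPB. CPB 2 was far above and CPB 1 and CPB 3 were below all Sham animals, and the log2 difference was 0.044 (standard error 0.33, 95% confidence interval -0.77 to 0.86). Without CPB 2 this difference was -0.34 and without CPB 3 it was 0.29. The span over the arrays exceeded that of 83.8% of probe sets on this probe set and of 14.5% and 5.61% on the other 2. The genes closest to the brightest PPARD probe set were BAD, a promoter of apoptosis, VPS37B, an endosomal sorting protein, and CHD7, a chromatin remodeller, with root mean square differences of 0.045, 0.051 and 0.071.

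RXRA, the partner that PPARs need to bind DNA, was dim and even. Probe set Ssc.15990.1.S1_at gave 50.6, 69.6 and 50.5 in Sham and 55.3, 56.5 and 64.7 in CPB. Ssc.15990.1.A1_at, which has the same number in its name, gave 49.1, 64.2 and 49.1 in Sham and 61.2, 50.8 and 70.0 in CPB. Sham 1 and Sham 3 were low and Sham 2 and CPB 3 high on both. The log2 differences were 0.061 (95% confidence interval -0.35 to 0.47) and 0.16 (95% confidence interval -0.27 to 0.60). For the former the sign turned without Sham 1 (-0.015), Sham 3 (-0.016) or CPB 3 (-0.0090).

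PPARGC1A, the coactivator, was bright and differed most among the Sham animals. The Sham animals had 1157.2, 1004.5 and 580.1, and the CPB animals had 818.4, 873.4 and 801.3. All 3 CPB animals lay between the lowest and the highest Sham animal, and the highest was 1.99-fold above the lowest in Sham and 1.09-fold in CPB. Sham averaged 914 ± 299 and CPB 831 ± 37.7 (mean ± SD, n = 3 each), a log2 difference of -0.079 (standard error 0.27, 95% confidence interval from -0.73 to 0.57, adjusted p = 0.995 from limma). Without Sham 3 it was -0.38 (unadjusted p = 0.0391, adjusted p = 1.00 from limma), short of 1.6-fold, and without Sham 1 it was 0.12. With the proximal tubule covariate the difference was -0.025 (standard error 0.28).

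**Figure D3:**
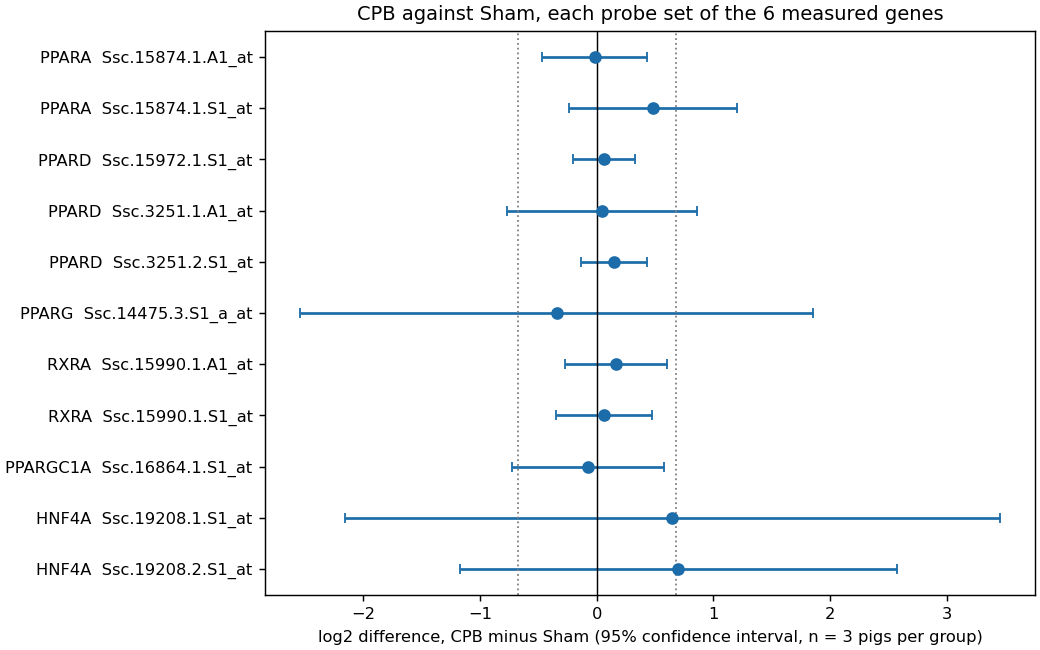
Log2 difference between CPB and Sham for each of the 11 probe sets, as point and 95% confidence interval from limma (n = 3 pigs per group), with dotted lines at 1.6-fold in either direction (0.678 on the log2 scale). All 11 intervals include 0, and 5 of them lie inside 1.6-fold in both directions, while those of HNF4A and PPARG are the widest.

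The precision of these comparisons differed between members. The interval of the difference lay inside 1.6-fold in either direction on 5 of the 11 probe sets, which are 2 of PPARD, 2 of RXRA and the dimmer one of PPARA. On the 6 others, which are both of HNF4A and those of PPARG, PPARGC1A, the brighter PPARA and the brightest PPARD, it reached 1.6-fold and so includes differences of that size.

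**Figure D4:**
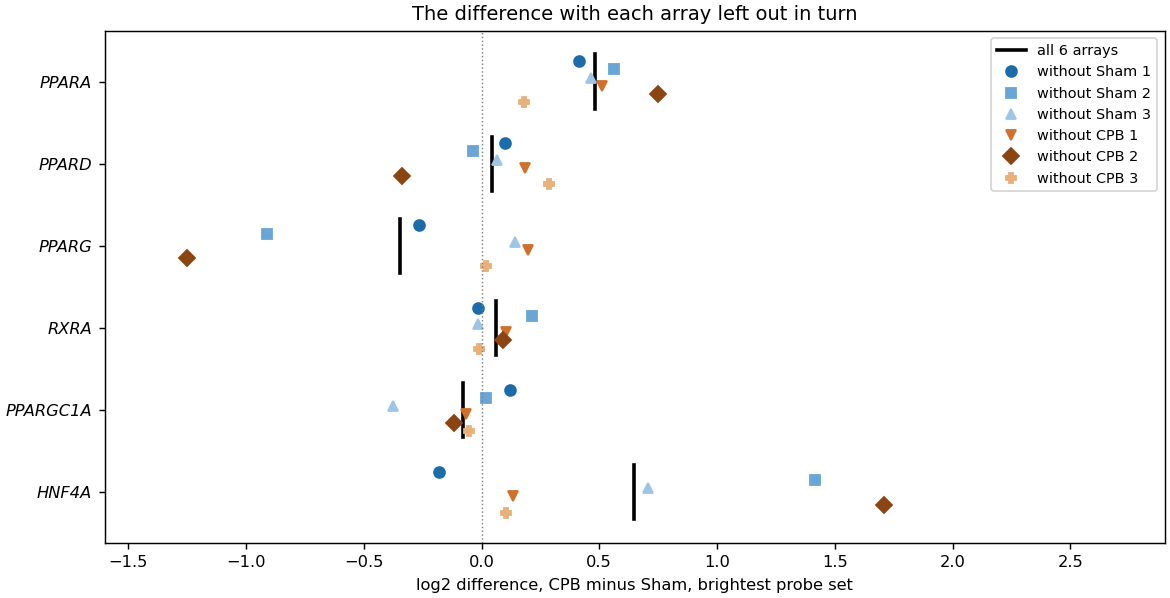
Log2 difference between CPB and Sham on the brightest probe set of each gene, with all 6 arrays (black bar) and with each array left out in turn (points). HNF4A runs from -0.18 to 1.71 and PPARG from -1.25 to 0.20, whereas RXRA stays between -0.016 and 0.22.

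Among genes that PPARs are known to control, most had a higher mean in CPB and none passed the adjusted test. Of 63 listed target genes 44 were measured under their symbols, 38 were higher on average in CPB, and they differed by a median of 0.18 on the log2 scale, beside 56.2% higher and a median of 0.033 over all named genes. None met the study's threshold, 1 had an unadjusted p under 0.05 with limma, and on 2 the groups did not overlap, all CPB above all Sham in each. Over all named genes 5.37% had groups without overlap and 3.41% had all CPB above all Sham, so 2 of 44 is near these shares. Without Sham 2 the threshold was met by 2 of the 44, without CPB 2 by 4, and with array weights by 11, where it was met by 2.92%, 2.89% and 7.12% of all probe sets. ANGPTL4, a lipoprotein lipase inhibitor induced by all 3 PPARs, had 380.7, 495.5 and 351.1 in Sham and 593.0, 515.2 and 689.1 in CPB. No CPB animal fell into the Sham range, and the log2 difference of 0.56 (standard error 0.18, unadjusted p = 0.0229 and adjusted p = 0.995 from limma) fell short of 1.6-fold. A dimmer ANGPTL4 probe set differed by 0.75 with overlapping groups. HADHA of the mitochondrial trifunctional protein, the other gene without overlap, had 1465 to 1621 in Sham and 1638 to 2000 in CPB. ECI2 and ECI1, isomerases for unsaturated fatty acids, differed by 1.17 (standard error 0.49) and 0.47 (standard error 0.33) with overlap, and a second ECI2 probe set by 0.082.

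The PPAR target genes also varied between animals of the same group. Their centred mean was -0.42, 0.29 and -0.25 in Sham and 0.35, -0.40 and 0.43 in CPB, low in Sham 1 and CPB 2 like HNF4A. The median difference was 0.38 without Sham 2, 0.37 without CPB 2, 0.079 without CPB 3 and 0.096 without CPB 1. With the proximal tubule covariate it was 0.032 and 27 of the 44 were higher. No gene of this list is among the proximal tubule markers, but several could still follow that segment. The part of proximal tubule content in these values was not tested.

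Genes of mitochondrial biogenesis, on which PPARGC1A, NRF1 and ESRRA are known to act, were 31 of 35 higher on average in CPB with a median log2 difference of 0.19, beside 56.2% and 0.033 over all named genes. None met the study's threshold, or 2 without CPB 2, where 2.89% of all probe sets met it. On 2 the groups did not overlap, all CPB above all Sham in each. This is near the 5.37% of all named genes without overlap, of which 3.41% of all named genes had that direction. ALAS1, which starts heme synthesis and is a textbook target of PPARGC1A, had 388.1, 558.9 and 446.1 in Sham and 698.8, 563.3 and 604.4 in CPB. The difference was 0.43 (standard error 0.17, unadjusted p = 0.0469 and adjusted p = 0.995 from limma), with all CPB animals above all Sham animals, and its other 2 probe sets overlapped. OGDH, a citric acid cycle enzyme, was at 290.9 to 429.5 in Sham and 436.4 to 524.6 in CPB. SDHA of respiratory complex II and ATP5B of the ATP synthase differed by 0.36 (standard error 0.22) and 0.23 (standard error 0.14) with overlap. The centred mean of the list was -0.10, 0.082 and -0.25 in Sham and 0.10, -0.15 and 0.32 in CPB, and the median difference was 0.064 without CPB 3, 0.082 without Sham 3 and 0.30 without CPB 2. With the proximal tubule covariate the median was 0.11 and 26 of the 35 were higher.

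The average of genes that HNF4A is known to control varied with it, but not every gene did. Of 33 measured target genes 28 were higher on average in CPB, with a median log2 difference of 0.44, beside 56.2% and 0.033 over all named genes. The differences ran from -1.06 to 1.78. None met the study's threshold, and on 1 the groups did not overlap, where 5.37% of all named genes had no overlap. Without CPB 2 the threshold was met by 6 of the 33, without Sham 2 by 2, and with array weights by 13. In these settings it was met by 2.89%, 2.92% and 7.12% of all probe sets. The centred mean was -1.03, 0.61 and -0.24 in Sham and 0.67, -0.82 and 0.82 in CPB, the order of HNF4A itself. For 5 of the 33 (15.2%) the animals stood in exactly that order, beside 1.98% of all other named genes. Of these, PCK1, FBP1, SLC22A8 and HPD are also proximal tubule markers, which leaves F9. Some targets, such as APOA1 and SERPINA1, were instead highest in Sham 1, where HNF4A was lowest. Because 6 of the 33 are also proximal tubule markers, the median was taken without them and was 0.27, with 22 of 27 higher, beside 0.033 and 56.2% over all named genes. Leaving out these 6 does not separate the targets from proximal tubule content, whose part was not tested. The median of all 33 was 0.12 without Sham 1, 0.18 without CPB 3 and 0.81 without CPB 2, and 0.041 with the proximal tubule covariate.

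Single HNF4A targets went in either direction. CYP27A1, a sterol hydroxylase, had 215.9, 251.0 and 310.9 in Sham and 448.7, 250.0 and 520.0 in CPB, with CPB 2 inside the Sham range. GSTA1, a glutathione transferase, gave -1.06 (standard error 0.50) on the brightest of its 3 probe sets and 0.16 on another. SERPINA1, alpha-1 antitrypsin, differed by -0.80 (standard error 0.52), and CYP2E1, a cytochrome P450 of very low signal here, was at 12.4 to 16.1 in Sham and 16.4 to 17.5 in CPB.

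**Figure D5:**
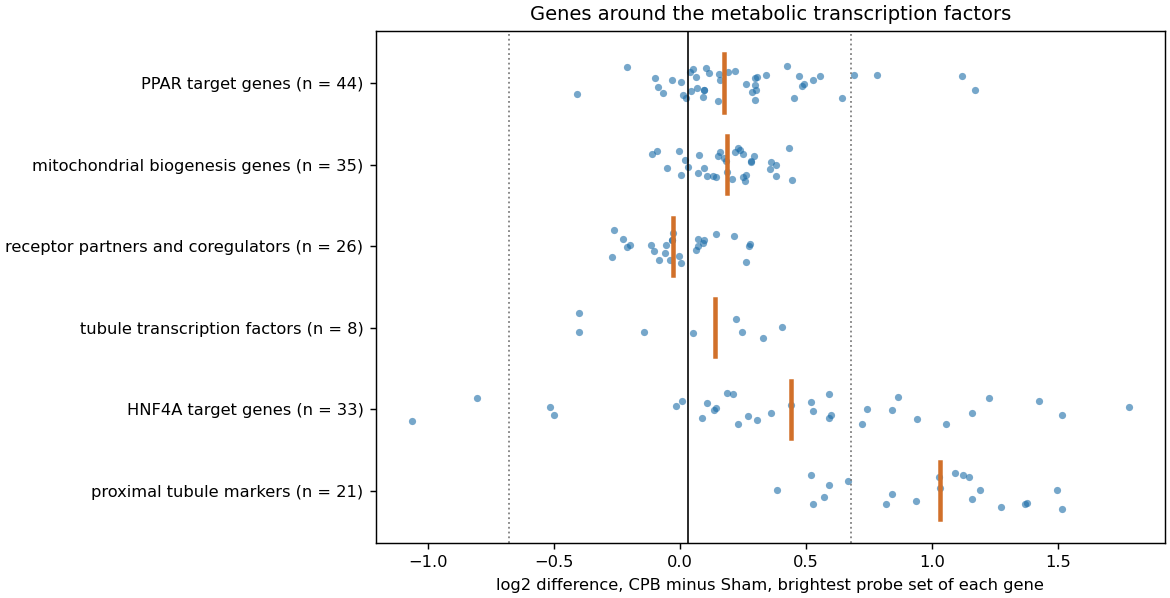
Log2 difference between CPB and Sham for each gene of 5 lists around the transcription factors and for proximal tubule markers, on the brightest probe set of each gene, with an orange bar at the median of each list, a black line at the median of all named genes (0.033) and dotted lines at 1.6-fold. The medians lie at 0.18 for PPAR targets, 0.19 for mitochondrial biogenesis genes, -0.029 for partners and coregulators, 0.14 for tubule transcription factors, 0.44 for HNF4A targets and 1.03 for proximal tubule markers.

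Dimer partners, related receptors and coregulators of the PPARs did not share a direction. Of 26 measured genes 11 were higher on average in CPB, the median of the differences was -0.029, and 0 met the study's threshold or had an unadjusted p under 0.05 with limma. The groups did not overlap on 4 of them, where 5.37% of all named genes had no overlap. PRKAA2, a catalytic subunit of the AMP-activated kinase, which phosphorylates PGC-1alpha, had 113.7, 109.5 and 100.3 in Sham and 129.1, 141.0 and 121.6 in CPB, a difference of 0.27 (standard error 0.12). PRKAG1, a regulatory subunit of the same kinase, was the only one with all CPB animals below all Sham animals, at 374.7 to 422.9 in Sham and 314.3 to 357.6 in CPB (difference -0.21, standard error 0.12), and its other probe set overlapped. NR2F6, an orphan nuclear receptor, had 532.4 to 596.2 in Sham and 613.9 to 763.6 in CPB. RARA, a retinoic acid receptor, had 32.1 to 37.1 in Sham and 37.2 to 40.4 in CPB. CREB1, which binds the PPARGC1A promoter in fasted liver, differed by 0.21 (standard error 0.15) with overlap. The centred mean of the list stayed within -0.066 and 0.084 on all arrays.

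Other transcription factors of the kidney were measured for 8 of 25 listed genes, and none met the study's threshold or had groups without overlap on its brightest probe set. Without Sham 2 the threshold was met by 1 of them and with array weights by 2, where it was met by 2.92% and 7.12% of all probe sets. LHX1, an early nephron factor, had 55.1, 139.4 and 67.6 in Sham and 118.6, 94.2 and 107.6 in CPB (difference 0.40, standard error 0.35). WT1, a podocyte factor, differed by 0.25 (standard error 0.22), and TCF21, a stromal and podocyte factor, by -0.40 (standard error 0.40). NR3C1, the glucocorticoid receptor, differed by -0.14 (standard error 0.15), and its 4 probe sets ran from -0.22 to 0.044, with groups that did not overlap on 1 of them. GATA3, given above, is also in this list.

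Sham 2 and CPB 2 bear on the counts above. The number of probe sets at the study's threshold was 73 with all 6 arrays, 701 without Sham 2 and 693 without CPB 2, and the array median intensities lay between 94.3 and 96.5. Without Sham 2 the groups did not overlap on 4 of the 11 member probe sets and on 32.4% of all probe sets, and without CPB 2 on 4 of the 11 and on 22.2% of all. It was 1 of the 11 without Sham 3 (9.03% of all) and without CPB 1 (11.1%), and 0 without Sham 1 (8.81%) and without CPB 3 (10.2%). None of the 11 passed the adjusted test without any one array.

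Markers of other cell types moved with the animals too. The centred mean of 12 endothelial markers was 0.43, -0.17 and 0.078 in Sham and -0.26, 0.34 and -0.42 in CPB, and that of 12 leukocyte markers was 0.14, -0.10 and -0.018 in Sham and -0.16, 0.29 and -0.16 in CPB. For 10 markers of fibroblasts and smooth muscle it was 0.50, -0.37 and 0.32 in Sham and -0.14, 0.29 and -0.61 in CPB. All 3 lists were lower in Sham 2, CPB 1 and CPB 3, where HNF4A was high, and their part in the values of the members was not tested. At the study's threshold 1 of the 12 endothelial markers was lower in CPB, where 0.37% of named genes met it. On average 7 of the 12 were higher in CPB. No leukocyte, fibroblast or smooth muscle marker met the threshold. The summed intensity of the endothelial list was 6897 to 9368 in Sham and 6998 to 7630 in CPB, that of the leukocyte list 1156 to 1490 and 1129 to 1659, and that of the fibroblast and smooth muscle list 4789 to 13055 and 3790 to 9284.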

How the data were processed

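Renal medulla RNA of 3 Sham and 3 CPB pigs was hybridised to Affymetrix GeneChip Porcine Genome Arrays, 1 per animal. Scanning used GCOS, and RMA normalisation was done by the authors in ArrayStar, who deposited linear intensity values for 24123 probe sets. RMA is also named in the submitters' processing notes. Raw arrays were not analysed here, so signal over background is unknown.

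The 124 control probe sets were left out, log2 was taken, and CPB was compared with Sham on the other 23999 with limma 3.58.1 in R 4.3.3 (lmFit, eBayes, group as the only term, Benjamini-Hochberg adjustment over all). The methods' t-test was an alternative. Gene symbols were read from the platform annotation (10297 probe sets, of which 198 have several symbols). All 11 member probe sets carry the current RefSeq symbol of their gene ID. A gene's brightest probe set stands for it in gene lists, from which members were removed.

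The members and lists were chosen with earlier results of these data known. Each list's 4 smallest p-values, genes without overlap where at most 6, and the 3 profiles closest to members spanning at least 1 on the log2 scale are named. Other cell type markers named singly were picked with their values in view. The fit was tested on simulated data. Same-numbered Sham and CPB samples deviated from their group means with correlations of -0.39, -0.68 and -0.016. Samples of different number had -0.71 to 0.70. The samples were treated as unpaired, but so few animals cannot exclude a pairing by number. Only 3 animals per group limit the precision.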

Additional observations from a re-analysis of the deposited data

How the results depend on the processing

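Under every alternative no probe set passed the adjusted p. The count of probe sets at the study's threshold, 73, was 30 and 26 with the methods' t-test (log2, then linear values), 1709 with array weights (0.373 for Sham 2 and 0.428 for CPB 2, the lowest), 110 with the proximal tubule covariate, 21 at a fold minimum of 2, 76 with the replicate block and 52 to 701 with an array left out. The replicate block changed no call of a member. The count of member probe sets called, 0, became 1 with array weights (HNF4A on its dimmer probe set, 1.46) and was 0 to 1 with an array left out, as was the count of member genes called. With an array left out, 0 to 4 member probe sets had groups without overlap.

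Of 175 alternative log2 differences of member probe sets 154 kept their sign and their side of the threshold, 19 changed sign and 2 became called. Sign changes were -0.31 for HNF4A, 0.26 for PPARG and -0.015 for RXRA with the covariate, 0.11 for the dimmer PPARA and -0.24 for the brightest PPARD probe set with array weights, and 0.033 for PPARG on linear values. The median over the 3 PPARD probe sets on each array differed by -0.019. With an array left out the ranges were -0.18 to 1.71 for HNF4A, -0.12 to 0.17 for the dimmer PPARA, -0.34 to 0.29 for the brightest PPARD, -1.25 to 0.20 for PPARG, -0.38 to 0.12 for PPARGC1A and -0.016 to 0.22 for RXRA. The causes were not tested.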
